A study of Homo sapiens with 2 samples.

Results

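MYC, EGR1, FOSL1 and FOSL2 are 4 growth-response transcription factor genes, taken by their symbol in the platform annotation out of 14884 named genes on the array. Each gene was represented by its brightest probe set, judged by the mean over the arrays. The genes were chosen by their signals on both arrays and by their differences, so these values are a description and were not tested. All 4 passed the signal filter, which required that the brighter array reach a log2 signal of 3.91, the median of all values, and which 10081 genes passed. FOSL1 passed on the combination array only, while the other 3 genes lay above 3.91 on both arrays. SNK6, a lymphoma line of human NK/T cells cultured with 10% fetal bovine serum and 500 U/ml interleukin-2, was exposed for 72 h to romidepsin together with sildenafil (1 array) or to romidepsin alone (1 array). Romidepsin inhibits class I histone deacetylases, and sildenafil inhibits a phosphodiesterase that degrades cGMP. Both cultures received romidepsin, no untreated or sildenafil-only culture was analysed here, and the sources used here state no doses. The second drug in the short sample title was read as sildenafil because the treatment description names no other. With 1 array a group there is no replicate error, no difference was tested, and the effect of the drug cannot be told apart from that of a batch.

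EGR1, the FOS-like genes and MYC belong to the early transcriptional response to growth factors, cytokines and stress. Signals through the ERK kinases act on serum response factor and its partners at CArG boxes. The cAMP signals act on CREB at cAMP response elements. Through these routes EGR1 and FOS are switched on within minutes and usually decay soon after. The cultures here were exposed for 72 h, so an early rise was not measured. EGR1 is a zinc finger factor that binds GC-rich sites and is restrained by the corepressors NAB1 and NAB2. FOSL1 (FRA-1) and FOSL2 (FRA-2) are leucine zipper proteins without the strong activation domain of FOS, and they pair with JUN proteins to form AP-1. MYC pairs with MAX to drive growth genes, and the MXD proteins compete with it for MAX.

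The promoter windows of EGR1 and FOSL2 are shown because the other genes of the 4 had no window in the sequences used. Sites of the cAMP and serum response lie in such windows. RefSeq promoter windows (GRCh38.p14) matched 2 of the 4 genes, and the 250 bases before the annotated start are printed from 5′ to 3′. The EGR1 window is chr5:138465229-138465478 and the FOSL2 window is chr2:28392608-28392857, both on the plus strand. Capitals mark CArG boxes and the half-site of the cAMP response element, TGACG, on either strand.
EGR1: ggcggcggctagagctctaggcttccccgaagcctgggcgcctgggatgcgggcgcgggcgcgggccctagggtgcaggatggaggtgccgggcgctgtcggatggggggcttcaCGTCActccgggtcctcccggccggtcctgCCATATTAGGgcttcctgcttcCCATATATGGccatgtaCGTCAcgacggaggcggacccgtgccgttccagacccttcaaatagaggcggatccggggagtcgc
FOSL2: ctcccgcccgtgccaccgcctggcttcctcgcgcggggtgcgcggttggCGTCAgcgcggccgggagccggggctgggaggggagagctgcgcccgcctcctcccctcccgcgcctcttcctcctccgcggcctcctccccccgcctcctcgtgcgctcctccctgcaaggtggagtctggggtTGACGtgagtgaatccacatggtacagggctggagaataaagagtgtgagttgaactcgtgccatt

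The EGR1 window held 2 CArG boxes, from 105 to 96 and from 83 to 74 bases upstream of the start, and FOSL2 held none in its window. Of 35116 windows of the same length, of 27305 genes, 1.16% held at least 1 CArG box and 0.0313% held 2 or more. TGACG half-sites occurred at 135 to 131 and 66 to 62 bases upstream in EGR1, and at 201 to 197 and 66 to 62 bases upstream in FOSL2. They were not particular to these genes: the windows of FOS, FOSB, JUN, JUNB and JUND, searched in the same way, also held the half-site. The NAB2 window, also searched, did not hold it. Of all windows 21.2% held this half-site and 4.76% held it 2 or more times. The EGR1 and FOSL2 windows did not hold the full cAMP response element TGACGTCA (1.65% of all windows) or the AP-1 site TGACTCA (4.20%). They also lacked the E-box CACGTG (6.34%) and the EGR site GCGTGGGCG (0.720%). The JUND window held the full cAMP response element. Both strands were searched in every case. A match is a run of letters and was not measured as a bound site in these cells.

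FOSL2, EGR1 and FOSL1 had higher signals with sildenafil than without, by 1.25-fold to 1.38-fold, and MYC was nearly level. None of the 4 genes differed by 1.5-fold in either direction, the size that 1.02% of the 10081 genes reached upwards and 0.972% downwards. These were 103 genes higher and 98 lower on the deposited values, 61 higher and 130 lower with the trend over signal removed by lowess centring, and 78 higher and 116 lower with median centring. A signal depends on the probes as well as on the transcript, so signals of different genes were not ranked against each other. The value distributions of the arrays were almost identical as deposited, so each difference, the signal with sildenafil minus that without, is relative to the other transcripts.

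**Figure D1:**
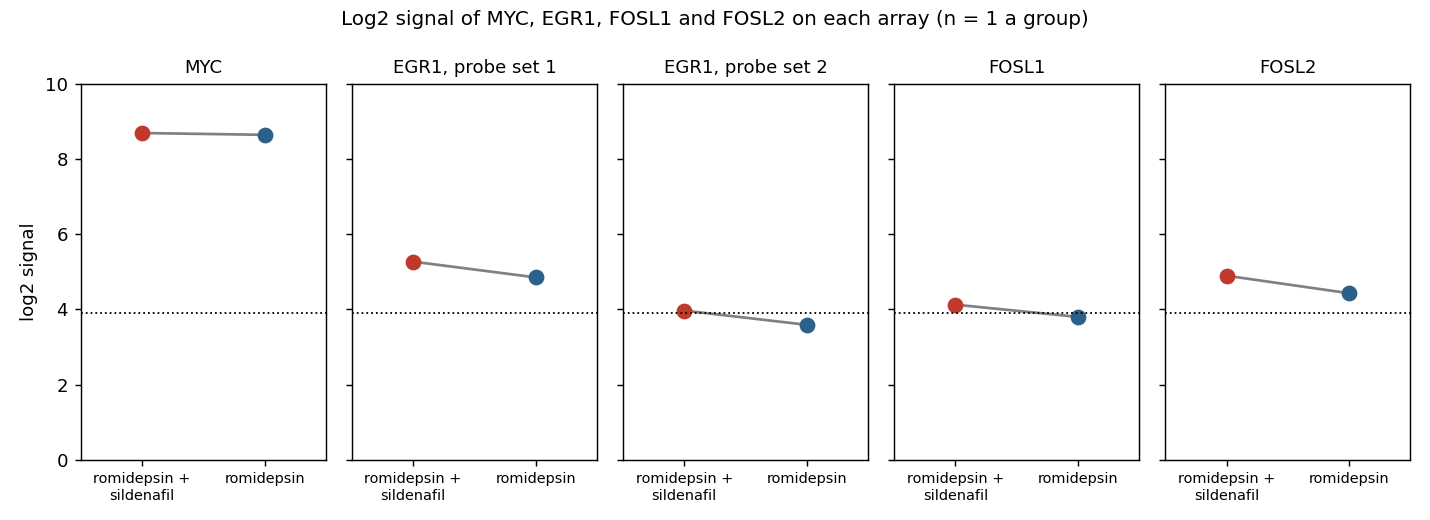
Log2 signal (y axis) of the probe sets of MYC, EGR1, FOSL1 and FOSL2 on the array with romidepsin plus sildenafil (red, left in each panel) and on the array with romidepsin alone (blue, right); each point is 1 array and the dotted line is the signal filter at 3.91. MYC is nearly level (8.69 and 8.64), and both EGR1 probe sets, FOSL1 and FOSL2 lie higher on the combination array.

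MYC, the bHLH factor that drives growth and ribosome production, had a log2 signal of 8.69 with sildenafil and 8.64 with romidepsin alone. The difference was 0.05 (1.03-fold), and it rests on 1 probe set. Each difference was placed among the 500 genes nearest to the gene in mean signal, because differences are wider at low signal. Among the genes around MYC, whose mean signals ran from 8.27 to 9.05, 117 differed more upwards and 383 lay below it, which puts MYC at percentile 76.6. The SD of the differences of these genes was 0.11, so MYC lay 0.43 SD above 0, and 320 of the 500 lay at least as far from 0.

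EGR1 had a log2 signal of 5.27 with sildenafil and 4.85 without on its brighter probe set. This is a difference of 0.42 (1.34-fold), or 1.74 SD of the 500 genes of like signal. Of these genes 22 differed more upwards, which puts EGR1 at percentile 95.6. EGR1 thus lay in the upper part of that spread but inside its central 95%, which ran from -0.51 to 0.47. A second EGR1 probe set, which the choice of the brightest one did not use, had 3.97 with sildenafil and 3.59 without, a difference of 0.38 (1.30-fold). This probe set lay above the filter level on the combination array only, so its agreement with the brighter one in direction is no independent support. The differences of the EGR1 probe sets were 0.04 apart. Across 395 genes with a second probe set of other values, both past the filter, 52.7% pointed the same way, and the median gap between the probe sets was 0.17. The probe sets were read from the same 2 RNA samples and are not replicates of the treatment.

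FOSL2, the FRA-2 subunit of AP-1, had a log2 signal of 4.89 with sildenafil and 4.43 without. Its difference of 0.47 (1.38-fold) was the largest of the 4 and amounted to 1.82 SD of the genes of like signal. Of those 500 genes 24 differed more upwards (percentile 95.2), and their central 95% ran from -0.50 to 0.53. Over all 10081 genes, 256 (2.54%) had a larger upward difference than FOSL2 and 368 (3.65%) a larger one than EGR1. FOSL2 was measured by 1 probe set.

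FOSL1, the FRA-1 subunit of AP-1, had a log2 signal of 4.12 with sildenafil and 3.80 without. The lower value lies under the filter level, so FOSL1 was kept through the array on which it was higher. Its difference was 0.33 (1.25-fold), or 1.16 SD, and 74 of the 500 genes of like signal differed more upwards (percentile 85.2). Mean signals of these 500 genes ran from 3.87 to 4.05. Those with a mean under 3.91 passed the filter only because their arrays differed, so near-equal genes of that signal are missing from the comparison. Genes near FOSL1 in signal were themselves shifted by a median of 0.05, and with the trend over signal removed the difference of FOSL1 was 0.23. FOSL1 rests on 1 probe set, and no background level per probe set is known.

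**Figure D2:**
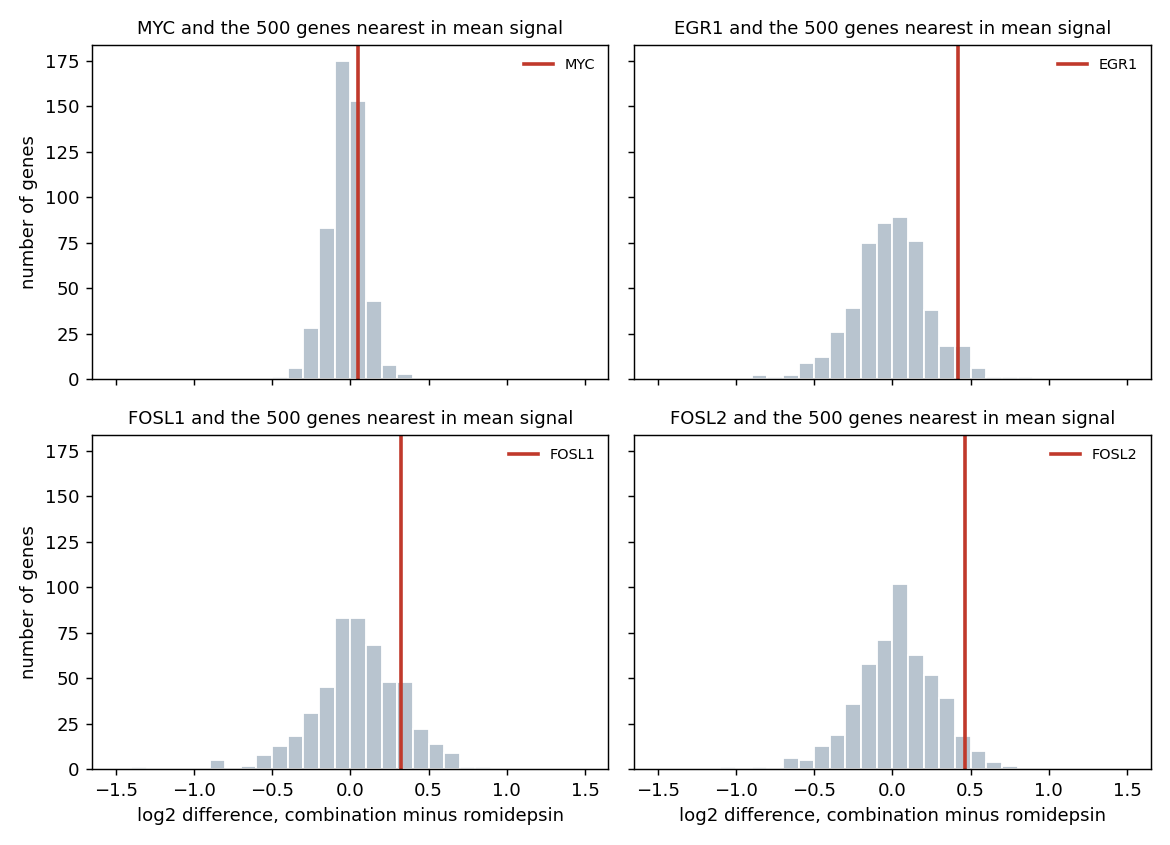
Number of genes (y axis) by log2 difference, combination minus romidepsin (x axis, bins of equal width), for the 500 genes nearest in mean signal to MYC, EGR1, FOSL1 and FOSL2; the red line is the named gene. The spread is narrower around MYC (SD 0.11) than around EGR1 (0.24), FOSL2 (0.26) and FOSL1 (0.28), and each red line lies inside the spread of its panel.

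The genes with the most similar pair of signals were found by Euclidean distance over the 2 arrays. ARF1, EXO1 and LMBR1 lay nearest to MYC, at distances of 0.0078 to 0.013. OGG1, RAB11FIP5 and SPPL2C lay nearest to EGR1, at 0.033 to 0.045. KRABD3, C8orf74 and SNX18 lay nearest to FOSL1, at 0.0040 to 0.0079, and LINC01235, SOWAHD and CAPN12 nearest to FOSL2, at 0.011 to 0.033. With 2 arrays this likeness says only that the signals were close.

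Within the FOS and JUN family, the subunits of AP-1, the FOS-like genes and FOSB were higher with sildenafil while JUN and FOS were lower, on the brighter probe sets (FOSB was at -0.02 with its probe sets averaged). All 7 listed genes were named and past the filter, with 4 higher, 3 lower and a median of 0.06, against a median of -0.01 over all 10081 genes, of which 47.2% were higher. The choice of FOSL1 and FOSL2 for their values contributes to that count. None of the 7 was 1.5-fold apart. With all probe sets of each gene averaged the split was 3 higher and 4 lower and the median was -0.02. With quantile normalization the split was 5 higher and 2 lower, where 55.5% of all genes past the filter were higher.

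FOSB, an activating FOS protein, had 5.43 with sildenafil and 5.17 without, a difference of 0.26, but its second probe set had 4.37 and 4.66, a difference of -0.29. FOS itself had 4.43 with sildenafil and 4.57 without (-0.15), and its second probe set differed by 0.05. The direction of FOSB and of FOS therefore depended on the probe set. JUN, the founding partner of FOS proteins, had 6.28 with sildenafil and 6.54 without, a difference of -0.26 that was lower than in 453 of 500 genes of like signal. JUNB had 9.42 and 9.47 on the combination and romidepsin arrays (-0.05, and 0.01 after quantile normalization), and JUND had 7.40 and 7.34 (0.06). The main dimer partners of FOSL1 and FOSL2 thus differed by at most 0.26 in size.

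Of 13 other leucine zipper partners, among them ATF, BATF and MAF proteins, 7 were named and past the filter. Of these 4 were higher and 3 lower, with a median of 0.03. With quantile normalization 6 were higher and 1 lower, where 55.5% of all genes past the filter were higher. MAFF, a small MAF protein without an activation domain, had 4.32 with sildenafil and 3.94 without (0.38). MAF differed by 0.18, JDP2, a repressor of AP-1, by 0.11 and MAFA by -0.06. ATF3, a stress-induced partner of JUN, had 7.25 and 7.26 and was level.

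In the EGR group EGR1 was the only gene past the filter that was higher with sildenafil. The choice of EGR1 for its values contributes to that contrast. Of 6 listed genes 5 were named and 4 passed the filter, with a median of -0.10. EGR3 had 4.25 with sildenafil and 4.35 without (-0.10). The corepressors NAB1 (5.71 and 5.82) and NAB2 (4.37 and 4.47) differed by -0.11 and -0.10. Among the 500 genes of like signal, EGR3, NAB1 and NAB2 lay at percentiles 25.6, 33 and 24.4, well inside the spread (SD 0.20 to 0.26). These 3 genes kept their sign under each of the 4 other settings tried, of normalization and of probe set handling. Averaging left their values unchanged and the other settings rescale the same 2 arrays, so the kept sign is no support. EGR4 differed by 0.45 but stayed below the filter, with 3.84 on the combination array and 3.39 on the romidepsin array, and EGR2 is not analysed here.

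The MYC and MAX network, in which MAX joins MYC or its antagonists, held no gene 1.5-fold apart on the brightest probe sets. Of 13 listed genes 11 were past the filter, with 3 higher, 8 lower and a median of -0.07, against 47.2% higher among all 10081 genes; with probe sets averaged it held 5 higher and 6 lower, with a median of -0.01. MAX had 6.65 with sildenafil and 6.72 without (-0.07). MXD3, an antagonist of MYC, had 7.20 with sildenafil and 7.46 without (-0.26), lower than in 467 of 500 genes of like signal. Its second probe set had 5.17 with sildenafil and 4.48 without, a difference of 0.69 in the other direction and more than 1.5-fold. MXD1, another antagonist, had 6.15 with sildenafil and 6.39 without (-0.24) on 1 probe set. MXI1 differed by -0.09, with 0.17 on a second probe set, and MXD4 by -0.02. The MAX-binding repressors MNT and MGA differed by -0.01 and -0.13. MLX and its partners MLXIP and MLXIPL, which sense glucose metabolites, differed by 0.12, 0.17 and -0.19.

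Genes that act on MYC protein or help it activate transcription were divided, with 6 of 12 higher, 6 lower and a median of -0.02 (18 listed), and with median centring 4 higher and 8 lower. CIP2A, which shields MYC from a phosphatase, had 8.65 with sildenafil and 8.88 without (-0.23). RUVBL1, an ATPase that joins MYC complexes, differed by 0.18, WDR5 by -0.16 and AURKA, a mitotic kinase that stabilises MYC family proteins, by -0.14. MYC targets were close to 0 as well: of 33 listed genes 20 were measured, with 10 higher, 10 lower, a median of 0.01 and a range from -0.25 (EIF4E, the cap-binding factor) to 0.20 (MYBBP1A). NOP2, a ribosomal RNA methyltransferase, differed by 0.18 and TFAP4 by -0.14. With quantile normalization 15 of the 20 were higher, and with median centring 9, with a median of -0.02. The scaling moved all genes past the filter too, with 55.5% higher under quantile normalization and 40.3% under median centring. The nucleolar proteins NCL (8.92 and 8.89 on the combination and romidepsin arrays) and FBL (9.91 and 9.85) differed by 0.03 and 0.06.

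Upstream of EGR1 and the FOS genes, the ERK kinases and serum response factor were nearly level. Of 20 listed genes 9 were named, all past the filter, with 5 higher, 4 lower and a median of 0.01. With median centring 3 were higher and 6 lower, with a median of -0.02, where 40.3% of all genes past the filter were higher. HRAS had 5.72 with sildenafil and 5.96 without (-0.24). The kinase MAP2K2 differed by -0.20 and MAP2K1 by 0.13, MAPK3 (ERK1) by 0.01, SRF by 0.06 and its coactivators MRTFA and MRTFB by 0.02 and -0.15. CREB1, which binds the cAMP response element, had 7.49 with sildenafil and 7.59 without (-0.11). These are transcript signals, and the activity of the kinases was not measured.

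Genes of the ERK feedback list were split. Of 15 listed genes 10 were past the filter, with 5 higher, 5 lower and a median of -0.01. ETV5, an ETS factor, had 4.68 with sildenafil and 4.32 without (0.36), and DUSP6, a phosphatase selective for ERK, had 5.58 and 5.26 (0.32). DUSP8, which the list holds although it is a phosphatase of stress kinases, had 4.10 with sildenafil and 4.53 without (-0.43). The nuclear phosphatase DUSP5 differed by -0.34 on its brighter probe set and by 0.25 on the other. Other immediate-early genes had 5 of 8 members higher, 3 lower and a median of 0.09 (22 listed). KLF10 had 6.01 with sildenafil and 6.34 without (-0.33), KLF2, a factor of lymphocyte quiescence, differed by 0.27, ARC by 0.16 and IER5 by 0.15.

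Known targets of AP-1 and EGR1 showed no difference of 1.5-fold either. Of 20 AP-1 targets 8 were past the filter, with 5 higher, 3 lower and a median of 0.05, and with median centring 4 higher and 4 lower. CCND1, cyclin D1, had 4.55 with sildenafil and 4.23 without (0.33). HMOX1, heme oxygenase, differed by 0.28 and IL11 by -0.21, while the cytokine gene LIF differed by 0.28 and passed the filter through the combination array only (4.14 against 3.86). Of 16 EGR1 targets 7 were past the filter, with 3 higher, 4 lower and a median of -0.02, and with quantile normalization 5 were higher and 2 lower. The growth factor genes PDGFA and PDGFB differed by -0.22 and 0.13, and VEGFA by 0.08. Over the 100 genes of these lists, each counted once on its brightest probe set, 50 were higher and 50 lower. None was 1.5-fold apart, a size that only 1.02% of the 10081 genes reached upwards and 0.972% downwards. The even split moved with the scaling, to 62 higher and 37 lower with quantile normalization and 42 higher and 58 lower with median centring. Of all genes past the filter, 55.5% and 40.3% were higher under these settings.

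**Figure D3:**
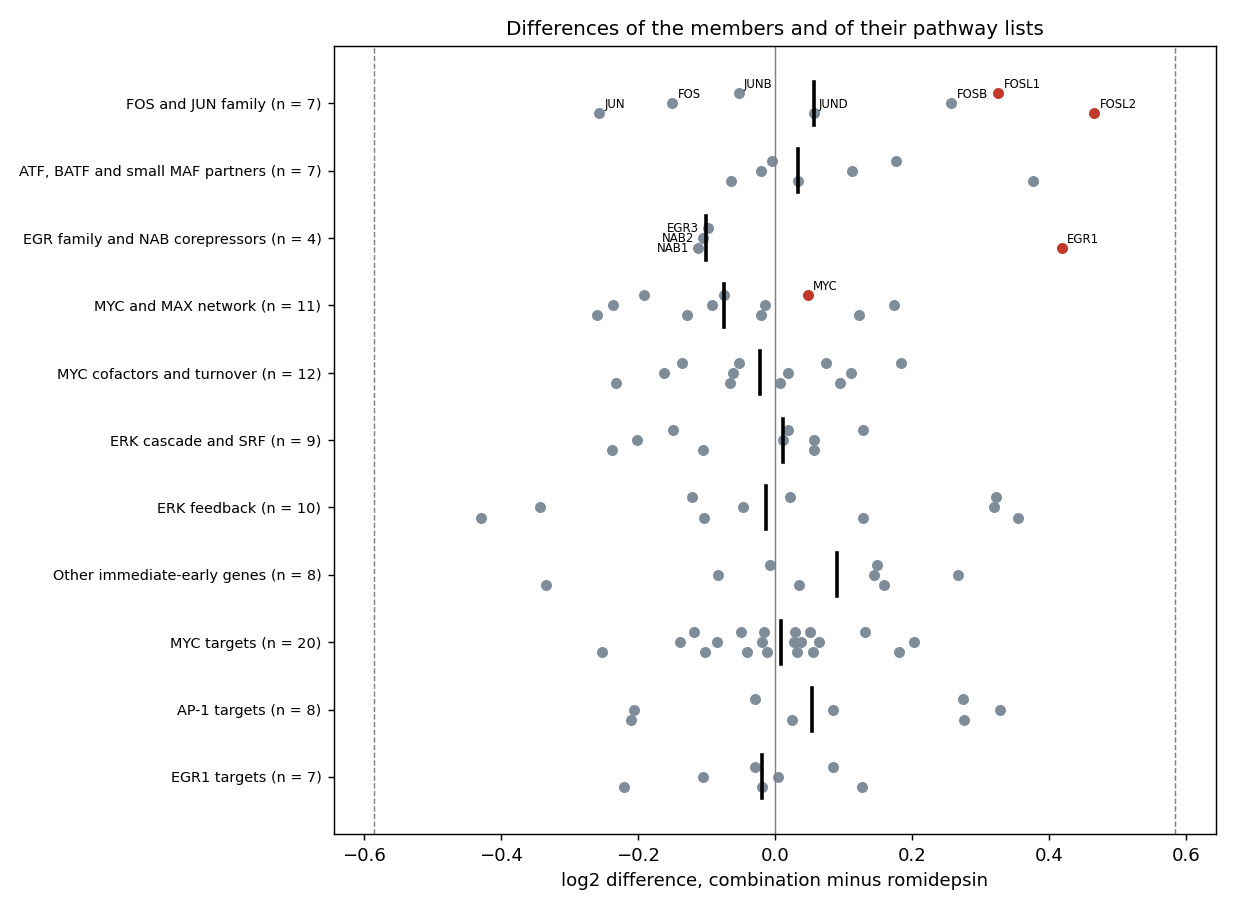
Log2 difference, combination minus romidepsin (x axis), of each gene past the filter in the lists around the 4 genes (rows); red points are MYC, EGR1, FOSL1 and FOSL2, grey points other genes, black bars list medians and dashed lines 1.5-fold. EGR1 (0.42), which was chosen for its values, lies above EGR3, NAB1 and NAB2 (-0.11 to -0.10). EGR4 (0.45) is not drawn because it stayed below the filter. FOSL2 and FOSL1, chosen likewise, have the highest values of the FOS and JUN row. No point reaches a dashed line.

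The markers of the labelled cell type and of others are given as signals on the combination and romidepsin arrays, without a ranking between probe sets, and with 1 array a group they do not tell cell types apart. All 7 named NK markers passed the filter, with a median difference of -0.01 and signals of 3.92 to 8.81 with sildenafil and 3.82 to 8.83 without. PRF1 had 8.81 and 8.83, NKG7 8.23 and 8.50, NCAM1 6.54 and 6.63, and NCR2 5.16 and 4.79. GNLY had 3.92 and 3.82 and passed the filter through the combination array only. The 5 named T cell markers lay between 4.03 and 4.52 with sildenafil and between 4.11 and 4.46 without, with CD6 at -0.25, CD5 at 0.24, CD4 at 0.10 and CD8A at -0.02, and CD3 genes are not analysed here. The B cell genes PAX5 (5.05 and 5.23) and BLK (5.14 and 5.19) were lower with sildenafil. Of macrophage genes, CD68 had 6.61 and 6.72, CSF1R 4.28 and 4.01, and VSIG4 3.88 and 4.30. Of the keratins, KRT18 had 7.38 and 7.04, KRT8 5.13 and 5.43, and KRT19 3.86 and 4.13. VSIG4 and KRT19 passed the filter through the romidepsin array only, while CD14 and LYZ stayed below it on both arrays. The part of other cells in the differences of the 4 genes was not tested, and in bulk RNA fewer cells of a type and less RNA per cell cannot be told apart.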

How the data were processed

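Total RNA of the 2 cultures was amplified with a whole-transcript kit and biotin-labelled, per the labels' protocols. The deposited table holds log2 signals of 53617 probe sets, 1 column per array; how they were summarised, background-corrected and normalized is not given in the sources used, and the log base was inferred from a maximum of 13.05. Sorted columns differed by at most 0.15. Sample groups came from the titles. The platform annotation gave 1 symbol to each of 16098 probe sets, several to 0, and covers 14884 genes, of which 779 had more than 1 probe set. All 4 symbols matched RefSeq.

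Differences, a 1.5-fold count (log2 of 0.58), ranks among the 500 genes nearest in mean signal and list medians were computed under Python 3.11.15. The packages were pandas 2.3.3, numpy 2.4.6, statsmodels 0.14.6 and scipy 1.17.1. The calculation was tested on simulated data in which changed genes were shifted by 2-fold or more. Recovery of differences as small as those of the 4 genes was not tested. The number of arrays limits the precision. The 4 genes and the lists were chosen with earlier results of these data known. Named were all measured genes of the FOS and JUN, EGR and NAB, and MYC and MAX lists, up to 4 genes of each other list by size of difference, and the 3 nearest genes of each of the 4. ATF3, MAPK3, SRF, MRTFA, CREB1, NCL, FBL, PRF1, CD14 and LYZ were named in addition after their values were seen, as were the searched motifs. Alternatives changed normalization, filter, probe set handling, fold and the number of genes of like signal.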

Additional observations from a re-analysis of the deposited data

How the results depend on the processing

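The differences of the 4 genes were recomputed under median centring, quantile normalization, lowess centring (span 0.3) and averaged probe sets. They were 0.02 to 0.09 for MYC, 0.39 to 0.43 for EGR1, 0.23 to 0.33 for FOSL1 and 0.43 to 0.47 for FOSL2. Averaging could change only EGR1, because 3 of the genes have 1 probe set each. The other settings rescale the same 2 arrays and shifted the median of all genes by -0.03 to 0.03. They could hardly change the sign of EGR1, FOSL1 or FOSL2, so the kept sign is no support. With 200 or 1000 genes of like signal or the signal decile, percentiles were 74.0 to 77.7 for MYC, 94.8 to 96.5 for EGR1 and 95.2 to 96.0 for FOSL2; FOSL1 was at 80.2 within its decile, against 85.2. Genes at least 1.5-fold higher numbered 103, and 61 with lowess centring, 223 without a filter, 28 with the brighter array at 5 or more and 9 at 2-fold; genes lower numbered 98, and 130 with lowess centring, 156 without a filter, 45 at 5 or more and 9 at 2-fold. Some list medians changed sign: the FOS and JUN family was at -0.017 with averaged probe sets; with quantile normalization MYC cofactors were at 0.0304, ERK feedback genes at 0.0301, EGR1 targets at 0.0310 and NK markers at 0.0283; without a filter ERK feedback genes were at 0.0219, macrophage markers at 0.119 and fibroblast and epithelial markers at 0.0306. With lowess centring, 4 of these lists also crossed 0, to 0.013 or less; with median centring the ERK cascade was at -0.016 and MYC targets at -0.020, and with averaged probe sets ERK feedback genes were at 0.0037. Signal over background is unknown, and FOSL1 lies near the filter. No paired analysis was possible because each group holds 1 array.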
